A study of Mus musculus with 10 samples.

Results

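The distal colon of 4 Rag1-/- C57BL/6 mice that had been injected with regulatory T cells (Tregs) was described on its own, gene by gene, as the uninflamed baseline of the T-cell transfer model of colitis. These are the samples whose titles call them Treg-injected negative control colon tissue, and they make up 4 of the 10 arrays of the series. The other 6 colons, from Rag1-/- mice that had received naïve T cells (3 severely and 3 moderately inflamed by their labels), were not compared with the controls. Rag1 is needed to assemble antigen receptors, so all of these mice, the controls included, make no T or B cells of their own. Per the labels the mice were injected when 10 weeks old and killed after 2 to 3 months, at an age of 4 to 5 months, and no sex is stated. The tissue reached from the rectum to the junction of distal and proximal colon and held all layers of the wall, and the methods describe a lengthwise strip of each colon that was snap frozen. There was no colon without injected cells among the arrays. The baseline is therefore that of a colon in a mouse without T or B cells of its own that had received Tregs. It is not that of a wild-type colon.

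The distal colon is lined by absorptive colonocytes, which take up salt and water and export bicarbonate, and by goblet cells, which secrete the mucus that keeps bacteria away from the surface. Both arise from stem cells at the crypt base, together with rarer hormone-secreting and tuft cells. Under the epithelium lie fibroblasts, vessels, macrophages, enteric nerves and smooth muscle. Epithelial cells also respond to bacteria and to cytokines with secreted antimicrobial proteins, such as the Reg3 lectins, and to interferon gamma with genes of antigen presentation.

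Each colon was measured on 1 Affymetrix mouse array, and the values are log2 signals per probe set. Of 45101 probe sets, 34945 are annotated to 1 gene, and the 18193 genes so covered were each represented by whichever of their probe sets was brightest on average in the 4 control colons. A difference of 1 on this scale is a 2-fold difference in signal. The median of these probe sets was 5.88, and 10659 genes, or 58.6%, had a mean at or above it. Genes at or above this median were used wherever spread is described. Array medians lay between 5.37 and 5.40, and Pearson's r between control arrays over probe sets was 0.994 to 0.996. With 4 colons, the 95% interval of an SD runs from 0.566 to 3.73 times its value, so single SDs are imprecise. The labels call the samples biological replicates, and 1 array per mouse means that differences between mice, between dissections and between arrays cannot be told apart.

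Control 2 stood apart from the other 3 colons in genes known from the prostate. Pbsn, which encodes probasin, a secreted protein of the mouse prostate, had a signal of 2.56, 10.68, 2.69 and 2.64 in controls 1 to 4. In control 2 it lay 254-fold above the next colon, while the other controls and the 6 inflamed colons (2.56 to 2.79) were at the floor of the array. Tgm4, the prostate transglutaminase, was 4.89, 10.49, 5.00 and 5.20 in the same order, and Pate14, a small secreted protein of the male reproductive tract, was 2.42, 8.15, 2.39 and 2.56. A gap of at least 2 log2 units above the other 3 controls was found for 5 genes in control 2, for 4 in control 4 (Reg3g, Clca4b, Retnlb and Saa3), for 1 in control 1 (S100a8) and for 0 in control 3. Besides the 3 genes above, those of control 2 were 9530002B09Rik (8.27 against 3.63 at most in the other controls) and Defb1, an epithelial defensin (6.48 against 3.71 at most, with up to 4.72 in the inflamed colons). Msmb, a protein of prostatic secretion, was 4.61 in control 2 and at most 3.51 in the other controls. The 5 measured seminal vesicle genes, from Svs2 to Svs6, were dim in every control (means of 2.66 to 4.93). These prostate and seminal vesicle genes, apart from Tgm4, were chosen after their values were seen. Their part in other differences of control 2 was not tested.

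The brightest signals came from the epithelium and from the machinery that every cell uses. The highest mean of all genes was that of Zg16, a lectin-like protein of goblet cell mucus that binds bacteria, at 14.44 ± 0.04 (SD, n = 4). Lypd8, a surface protein of colonocytes that keeps motile bacteria from the epithelium, reached 14.35 ± 0.05, and Krt8, a keratin of simple epithelium, 14.25 ± 0.03. Muc3, a membrane mucin of the brush border, had 14.05 ± 0.02, Ceacam1, an adhesion molecule, 13.97 ± 0.13, and Clca1, a protease of the mucus gel, 13.96 ± 0.01. The galectins Lgals3 (14.14) and Lgals4 (13.995), which bind sugars on glycoproteins, stood among the 20 brightest genes too. The remaining places in the 20 were held by ribosomal proteins (Rps29, Rpl41, Rps14, Rpl38 and Rpl13a), by the respiratory chain subunits Cox6a1 and Uqcrb, by the elongation factor Eef1a1, and by Tpt1, Crip1, Plac8 and Txn1. Among the 100 brightest genes, 27 encode ribosomal proteins, 13 encode respiratory chain subunits and 18 are on the epithelial lists. Of all 18193 genes, the lists of goblet cells, colonocytes, pan-epithelial genes and salt and water transport held 20, 21, 19 and 19. How many of all genes encode ribosomal proteins or respiratory chain subunits was not counted. The order is an order of signal, which also depends on how well each probe set binds and saturates, and not of transcript number.

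Gene lists of the cell types of the colon wall were read against genes that are restricted to other organs, such as those of sperm, retina, pituitary, liver and lung. These 18 genes had a median of 4.23 and ranged from 2.80 to 6.23, and 2 of them reached the array median, against 58.6% of all genes. All 20 goblet cell genes, all 19 pan-epithelial genes and 20 of 21 colonocyte genes were at or above the array median, with median levels of 10.78, 11.24 and 12.46. So were all 19 measured genes of salt and water transport, all 14 smooth muscle genes and all 12 fibroblast genes (medians of 10.92, 11.53 and 9.54). Of the rarer epithelial cells, 15 of 17 enteroendocrine genes (88.2%) passed it. Tuft cell genes did so for 7 of 13 (53.8%), below the share of all genes. Insl5, an insulin-like hormone made by L cells, was 11.54 ± 0.30, Pyy, a satiety hormone of the same cells, was 11.07 ± 0.27, and Pou2f3, the factor that specifies tuft cells, was 6.37 ± 0.05. Among 18 crypt base and stem cell genes 15 passed, with Lgr5, a receptor that strengthens Wnt signaling, at 6.66 ± 0.10. The tissue of the labels therefore showed in its defining markers, the tuft cell list aside. Only 2 of 18 genes of squamous epithelium and 2 of 14 of skeletal muscle reached the array median, although the dissection began at the rectum.

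**Figure D1:**
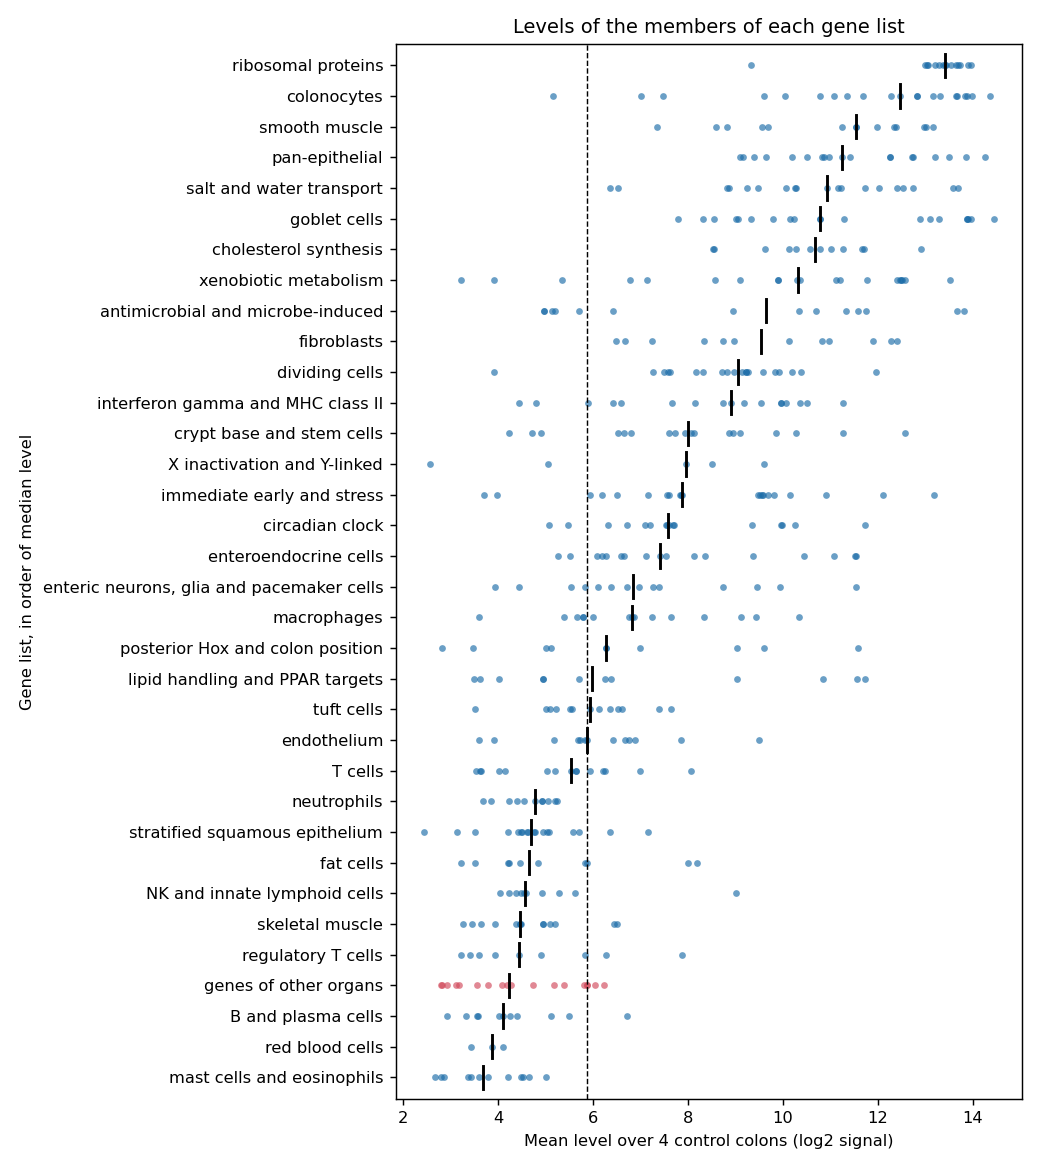
Mean log2 signal over the 4 control colons of each measured gene (points) of 34 gene lists, in order of the list median (black bars), with the median of all 1-gene probe sets as a dashed line. Genes of other organs (red) have a median of 4.23, and the lists of B and plasma cells, mast cells and eosinophils, and red blood cells have medians below it.

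Transcripts that define Tregs, the injected cells, were at the level of genes of other organs. Foxp3, the transcription factor that defines Tregs, had a signal of 3.48, 3.53, 3.29 and 3.30 in controls 1 to 4, and Il2ra, a subunit of the interleukin-2 receptor carried by Tregs, was 3.94 ± 0.11. Ctla4, an inhibitory receptor of Tregs, was 4.44 ± 0.21, and Il10, a cytokine that they secrete, was 3.23 ± 0.09. All of these lay within the range of genes of other organs, so these arrays give no Treg signal that can be told from the array floor. The members of the Treg list above the array median were Ikzf2, the transcription factor Helios, at 7.86 ± 0.44, and Tnfrsf4, a costimulatory receptor, at 6.28 ± 0.10. Ikzf2 ran from 7.38 in control 1 to 8.43 in control 2 while Foxp3 stayed at the floor.

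Of 15 measured T cell genes, which had a median of 5.53, 5 (33.3%) were at or above the array median. The share was 58.6% over all genes and 11.1% of genes of other organs. Zap70, a kinase of T cell receptor signaling, was the brightest at 8.05 ± 0.07, followed by Thy1, a surface protein that neurons and fibroblasts carry too (6.99 ± 0.15), Cd4 (6.25 ± 0.11), Cd3e (6.20 ± 0.14) and Lat (5.94 ± 0.28). Cd3e and Lat lay within the range of genes of other organs (2.80 to 6.23), and Cd4 lay just above it. Other subunits of the T cell receptor complex were dim, Cd3d at 5.19 ± 0.21 and Cd3g at 3.54 ± 0.22. Among 11 B and plasma cell genes, Ighm, the heavy chain of immunoglobulin M, alone passed the array median, at 6.72 ± 0.22, and Cd79a (4.24) and Ms4a1 (4.01), which define B cells, were at the floor. Rag1 itself was 5.05 ± 0.09, within the range of genes of other organs. It is dim in tissue without developing lymphocytes, and the position of its probes relative to the deleted part was not examined, so its signal does not check the genotype. In whole tissue, fewer cells of a type and less RNA per cell cannot be told apart.

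Macrophages had a larger share of their genes at or above the array median than any other leukocyte list, 10 of 15 (66.7%). This is near the 58.6% of all genes. Among the 10 were Lyz2, a lysozyme (10.33 ± 0.07), Cd14, a coreceptor for lipopolysaccharide (9.43 ± 0.22), Csf1r, the receptor that macrophages need to survive (9.12 ± 0.14), and C1qa, a complement subunit (8.33 ± 0.19). None of 11 neutrophil genes and none of 12 mast cell and eosinophil genes had a mean at or above the array median. S100a8, a calcium-binding protein of neutrophils that epithelium can also make, was nevertheless 6.77 in control 1 against 4.04, 3.90 and 4.43 in controls 2 to 4. S100a9, which forms a complex with it, was 6.10 in control 1 against 4.06, 3.72 and 4.27. The other neutrophil genes did not set control 1 above the rest in this way: Mpo, an enzyme of neutrophil granules, was 3.77, 3.65, 3.59 and 3.72, and Camp, a granule peptide, was lowest in control 1 (4.97).

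The Y-linked genes Eif2s3y (9.60 ± 0.14), Kdm5d (8.50 ± 0.15) and Uty (7.97 ± 0.21) were bright in all 4 control colons, and Xist, which silences an X chromosome in female cells, was between 4.88 and 5.13. The same held in the 6 inflamed colons, where Xist was between 4.98 and 5.29 and Kdm5d between 7.42 and 8.39.

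Most genes varied little between the 4 colons. At or above the array median, the median SD was 0.121 log2 units and the median range, the highest minus the lowest colon, was 0.271, which is 1.21-fold. An SD of 0.314 was exceeded by 5% of these genes. The SD changed little with level, with a median of 0.119 among the dimmest genes (means of 2.16 to 4.53), 0.134 in the next class of level (4.53 to 6.65) and 0.102 among the brightest (10.24 to 14.44). Of the 10 genes of lowest SD in the upper quartile of level, 2 are on the pan-epithelial list. That quartile, from 8.01 up, held 6052 genes, among them all 19 of the list, the dimmest at 9.10. Krt18, the keratin that pairs with Krt8, was between 12.25 and 12.26 in all colons (SD 0.005), and Epcam, the epithelial adhesion molecule, had an SD of 0.009 around 13.86. The other 8 genes of lowest SD were Efr3a, Sh2d4a, Arid2, Rbm6, Hnrnpab, Kiz, Tmem87b and Dohh, with SDs of 0.003 to 0.010. Ribosomal protein genes had a median SD of 0.063, pan-epithelial genes 0.103, crypt base and stem cell genes 0.125 and colonocyte genes 0.132. The pan-epithelial genes of highest SD were Cldn15, a claudin of the tight junction (9.68, 8.86, 9.45 and 9.59), and Cdx2, the factor of intestinal identity (10.74, 9.97, 10.56 and 10.74), both lowest in control 2.

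A range of at least 1 log2 unit, a 2-fold difference between the highest and the lowest colon, was reached by 194 of 10659 genes, or 1.82%. Control 2 was the lowest colon for 80 of them (41.2%, against 27.8% of all genes at or above the array median) and the highest for 60 (30.9% against 21.5%). Control 1 was the lowest for 66 (34.0% against 31.2%) and the highest for 60 (30.9% against 28.8%). Control 4 was the highest for 51 (26.3% against 15.6%) and the lowest for 10 (5.15% against 23.4%), and control 3 was the highest for 23 (11.9% against 34.1%) and the lowest for 38 (19.6% against 17.7%). The count was 98 without control 2, 114 without control 1, 159 without control 3 and 173 without control 4. A single colon lay far from the other 3 (gap over range above the 95% critical value of Dixon's test) for 593 genes, or 5.56%, and this test flags about 1 in 20 groups by chance. Just inside the limit of 1 lay Rnf24, Cyp2d12 and Dbp with ranges of 1.003, 1.003 and 1.001, and just outside it lay 2210407C18Rik, Il22ra2 and Cttnbp2 with ranges of 0.996, 0.996 and 0.996.

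**Figure D2:**
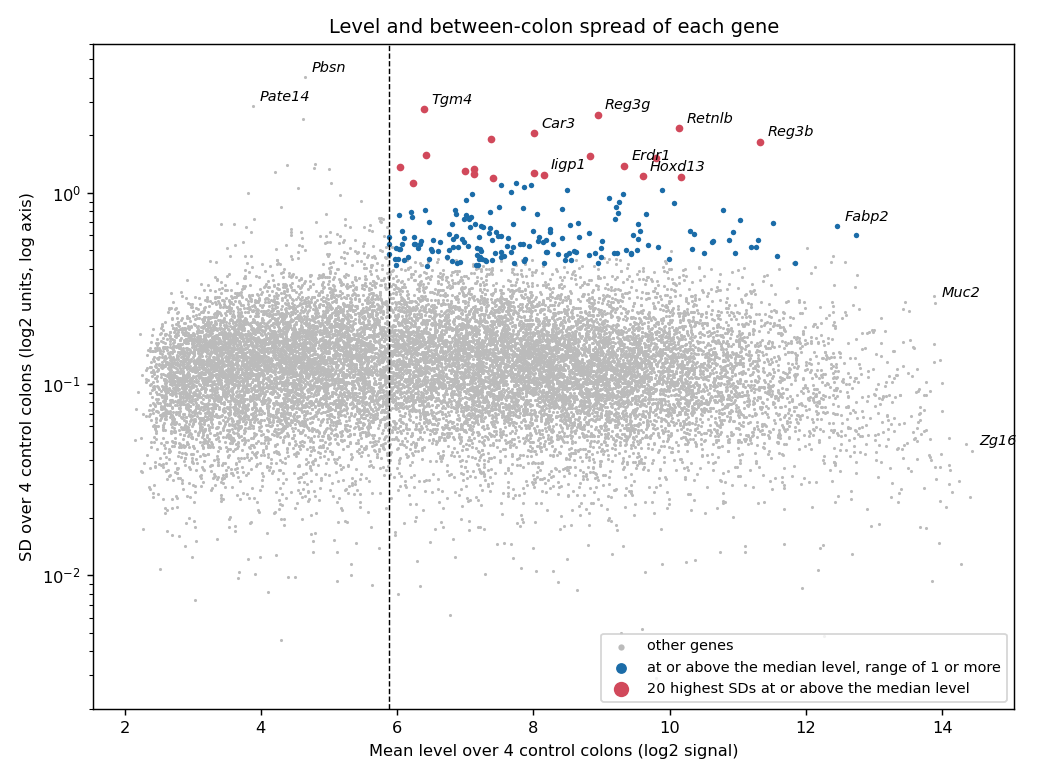
Mean log2 signal (x axis) and SD over the 4 control colons in log2 units (y axis, log scale) of 18193 genes, with the array median as a dashed line. Blue points are genes at or above that median with a range of at least 1, red points the 20 with the highest SD, and grey points all others, among them Pbsn and Pate14, whose means lie below the median because 3 colons were at the floor.

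The 20 genes of highest SD were Tgm4, Reg3g, Retnlb, Car3, Clca4b, Reg3b, Saa3, Mal, Plet1, Erdr1, Mmp7, Slc13a1, Hoxd10, B3gnt6, Ugt2b5, Iigp1, Hoxd13, Sptssb, Slc3a1 and Mid1, with SDs from 2.73 down to 1.12. Next below the last of them were Ido1 (1.12) and Cmah (1.09). Most of these genes also varied within the inflamed groups, which played no part in choosing them. Their median SD within severe and moderate colons was 0.641 against 0.153 for all genes at or above the array median, and 19 of the 20 lay above that value. The exception was Tgm4, the gene of highest SD in the controls, at 0.143. Ugt2b5 (0.155), Mid1 (0.171) and Clca4b (0.179) lay little above 0.153. For the 194 genes the median was 0.434, with 184 above 0.153.

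A further probe set at or above the array median was present for 50 of the 194 genes. It gave the same highest colon for 42 (84%) and the same lowest for 46 (92%), and both for 39 (78%), against both for 25.6% of 4312 such genes in all. Probe sets of a gene share the RNA of the same array, so this bears on the probe sets and not on the mice.

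**Figure D3:**
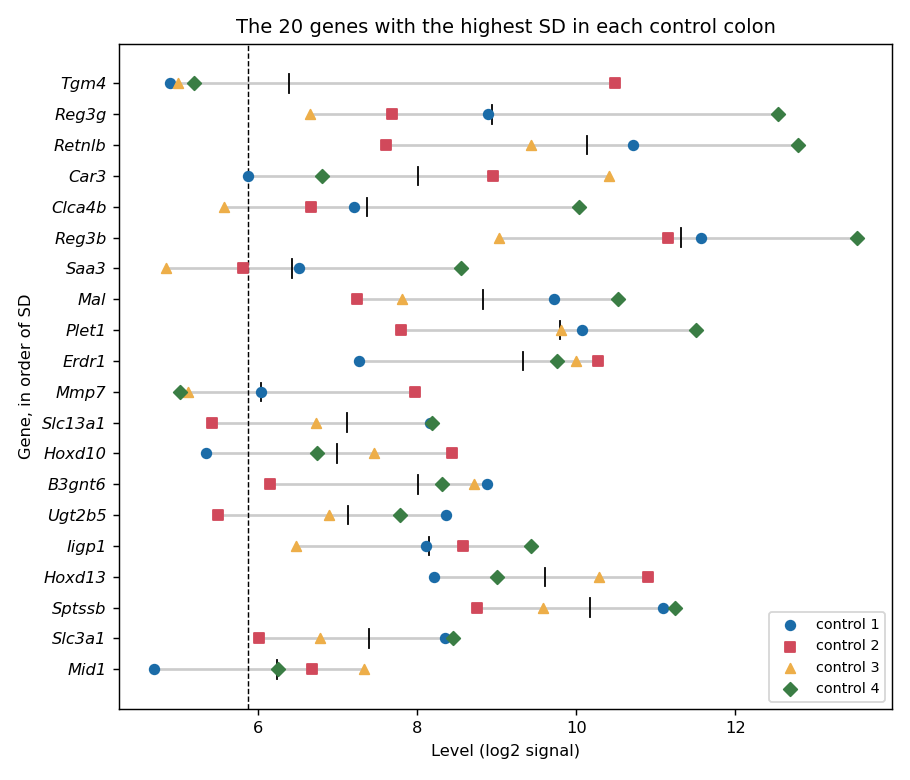
Log2 signal in each of the 4 control colons (symbols) for the 20 genes with the highest SD, with the 4-colon mean as a vertical bar and the array median as a dashed line. Control 4 is highest for Reg3g, Retnlb, Clca4b, Reg3b and Saa3, control 2 for Tgm4, Hoxd10 and Hoxd13, and control 3 for Car3.

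Several epithelial antimicrobial genes were far higher in control 4 than in control 3, and among genes at or above the array median Reg3g had the widest range. Reg3g, a secreted lectin that kills Gram-positive bacteria, was 8.90, 7.69, 6.65 and 12.54 in controls 1 to 4, a range of 59.2-fold. Its neighbour on chromosome 6, Reg3b, which acts on Gram-negative bacteria, was 11.57, 11.16, 9.03 and 13.54. Saa3, a serum amyloid A protein of tissues, was 6.51, 5.81, 4.84 and 8.55. All 3 ran in the same order, highest in control 4, then 1, then 2, and lowest in control 3. Clca4b, a member of the family of Clca1, followed that order too (7.21, 6.66, 5.57 and 10.04). Retnlb, a bactericidal protein of goblet cells, was 10.71, 7.61, 9.44 and 12.79, again highest in control 4 but lowest in control 2.

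Some other members of the antimicrobial list varied little. Of its 14 measured members 7 were highest in control 4, against 15.6% of all genes at or above the array median. Saa1 was 13.82 ± 0.09, Pigr, the transporter of immunoglobulin A, 13.67 ± 0.07, Il18, a cytokine of epithelium, 11.74 ± 0.12, and Lyz1, the lysozyme of Paneth cells, 11.57 ± 0.05. Of the 9 members at or above the array median, 3 had a range of at least 1, against 1.82% of all genes, and the median SD was 0.119 against 0.121 for all genes. Over all 14 measured members, dim ones included, the median SD was 0.236, against 0.122 for all genes without the filter on level. Duoxa2 and Socs3 were chosen after their values were seen. Duoxa2, a list member with a mean below the array median, matures the peroxide-forming oxidase Duox2. It was 6.11 in control 4 and 4.44 to 4.67 elsewhere. Socs3, a feedback inhibitor of cytokine signaling, was 7.40, 7.26, 6.86 and 9.14. Without control 4 the SD of Reg3g was 1.12 in place of 2.57 and that of Saa3 was 0.84 in place of 1.57, and that of Clca4b 0.83 in place of 1.90. Probe sets of close relatives, such as Lyz1 and Lyz2 or Saa1 and Saa2, may bind each other's transcripts. Lcn2, an iron-binding antimicrobial protein that marks neutrophils and inflamed epithelium, was dim in all colons (5.36, 5.26, 5.27 and 4.87).

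Genes induced by interferon gamma and genes of MHC class II, which present antigen, varied together. Of 15 members at or above the array median, 9 had a range of at least 1, against 1.82% of all genes, and their median SD was 0.483. The mean of the 17 measured members deviated from the 4-colon mean by -0.24, 0.26, -0.53 and 0.52 in controls 1 to 4, with 14 of the 17 highest in control 4 and 13 lowest in control 3. Over all genes at or above the array median these shares were 15.6% and 17.7%. Gbp2, an interferon-induced GTPase that attacks intracellular microbes, was 9.63, 10.68, 9.03 and 10.88, a range of 3.62-fold, and a second probe set gave the same order (8.88, 9.88, 8.38 and 10.21). Iigp1, a GTPase of the same defense, was 8.11, 8.58, 6.47 and 9.43, and Ubd, a ubiquitin-like protein, was 6.53, 6.71, 5.25 and 7.16. Control 3 was the lowest for all 3 of these genes and control 4 the highest, and without control 3 the SD of Iigp1 was 0.67 in place of 1.24.

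The immunoproteasome subunits, which cut proteins into peptides for presentation, followed a slightly different order. Psmb8 was 9.72, 10.75, 9.97 and 10.99 in controls 1 to 4 and Psmb9 was 8.92, 9.85, 9.21 and 10.17. Tap1, which pumps such peptides into the endoplasmic reticulum, was 8.37, 9.18, 8.66 and 9.43. For these genes control 1 rather than control 3 was the lowest. Of the class II genes, H2-Aa was 10.54, 10.63, 9.83 and 10.99, H2-Ab1 was 8.84, 9.40, 8.74 and 9.76, and Cd74, the invariant chain, was 7.44, 7.75, 7.18 and 8.31. Irf1, a transcription factor of the pathway, ranged less, from 11.05 to 11.59, and Ciita, the activator of class II genes, was dim throughout (4.79 ± 0.08). Of 15 macrophage genes 10 were highest in control 3, among them Csf1r and C1qa, against 34.1% of all genes at or above the array median. Fcgr1, an Fc receptor and the macrophage gene of highest SD, was instead 6.01, 6.06, 5.58 and 6.35, in the order of Gbp2. T cell genes as a list deviated by -0.01, 0.04, -0.09 and 0.06, which is that order too. Genes of other organs, mostly near the array floor, also ran in it (-0.02, 0.02, -0.05 and 0.04), so the order is not particular to T cell genes. The part of these cells in the differences was not tested. The count of 9 genes was 5 without control 3, 4 without control 4 and 9 without control 2, and without control 3 the SD of H2-Aa was 0.24 in place of 0.49.

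The promoters of this group were searched for the letters of the interferon-stimulated response element, here a pair of GAAA blocks with any 2 bases between them on either strand, a sequence that interferon-activated and interferon regulatory factors bind. RefSeq promoters of GRCm38.p6, each of 300 bases from 250 before to 50 after a start site, were available for 14 genes of the list. Of their 16 promoters, 4 (25%) held it, namely those of Gbp2, Igtp, Irgm1 and Cxcl10, against 3.44% of all 32851 promoters. The STAT site TTCNNNGAA, a palindrome, was found in 3 of the 16 (18.75%), namely of Igtp, Irf1 and Psmb8, and in 8.30% of all promoters. A match to either site describes letters only. Returning to the response element, of the 4 list genes that held it, Gbp2 alone was among the genes with a range of at least 1. The promoters of H2-Aa, Psmb8, Psmb9, Tap1 and Ubd, genes with a range of at least 1, did not hold it. Promoters of variable interferon genes that hold the response element are printed 5′ to 3′ with it in capitals, where it reads in reverse as TTTC blocks. Holding the element was a condition for being printed, and for each gene the first promoter that met it is shown. They are Gbp2 (chr3:142620413-142620712, plus strand), its neighbour Gbp3 (chr3:142559794-142560093, plus strand) and Ifit3, an interferon-induced RNA-binding protein (chr19:34583279-34583578, plus strand). Gbp3 and Ifit3 were chosen after their values were seen.
Gbp2: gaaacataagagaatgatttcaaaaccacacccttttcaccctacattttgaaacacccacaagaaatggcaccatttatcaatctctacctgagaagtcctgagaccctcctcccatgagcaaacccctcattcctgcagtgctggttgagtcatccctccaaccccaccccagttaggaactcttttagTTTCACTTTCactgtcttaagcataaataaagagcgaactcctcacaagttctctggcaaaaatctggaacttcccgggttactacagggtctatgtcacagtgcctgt
Gbp3: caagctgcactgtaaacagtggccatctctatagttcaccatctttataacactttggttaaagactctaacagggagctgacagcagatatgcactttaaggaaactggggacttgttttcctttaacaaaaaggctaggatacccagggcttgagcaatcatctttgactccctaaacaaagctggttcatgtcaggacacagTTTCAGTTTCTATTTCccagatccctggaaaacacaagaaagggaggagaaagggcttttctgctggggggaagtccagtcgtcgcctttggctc
Ifit3: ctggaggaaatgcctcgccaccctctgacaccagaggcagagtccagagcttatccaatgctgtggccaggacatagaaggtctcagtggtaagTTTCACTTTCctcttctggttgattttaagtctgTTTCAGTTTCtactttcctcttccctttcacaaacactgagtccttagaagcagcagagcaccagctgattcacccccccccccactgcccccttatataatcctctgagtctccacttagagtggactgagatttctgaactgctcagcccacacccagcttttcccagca

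Gbp3 was 8.51, 9.52, 7.84 and 8.77 in controls 1 to 4 and Ifit3 was 8.06, 9.62, 7.78 and 8.21. Both were lowest in control 3, as Gbp2 was, but highest in control 2 rather than in control 4.

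Some posterior Hox genes, which mark position along the body axis, differed between the colons. Of 10 measured members of that list, 7 were highest in control 2, against 21.5% of all genes at or above the array median. Control 1 was lowest for 6 members (against 31.2%) and control 3 for 3 (against 17.7%). Of the 6 members at or above the array median, 3 had a range of at least 1, against 1.82% of all genes. Hoxd13 and Hoxd10, transcription factors of the hind end of the embryo that stay on in the distal gut, were 8.21, 10.91, 10.29 and 9.004, and 5.35, 8.43, 7.45 and 6.74, in controls 1 to 4. Their neighbour Hoxd11 was 4.36, 5.85, 5.17 and 5.08, and Hoxb13, a factor of the distal colon and rectum encoded on another chromosome, was 10.92, 11.99, 11.80 and 11.58. These 4 genes were highest in control 2, then 3, then 4, and lowest in control 1. A second probe set of Hoxd13 gave the same order (4.83, 6.38, 6.03 and 5.61). Hoxa10 (8.91 to 9.16) and Hoxa13 (6.05 to 6.42) differed by less than 1. Without control 1 the SD of Hoxd10 was 0.85 in place of 1.299 and that of Hoxb13 0.21 in place of 0.47. Posterior Hox genes are also known from the prostate. Pbsn was high in control 2 and 2.69 in control 3, and its part in the Hox values was not tested.

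Some absorptive and metabolic genes ran in the reverse order, highest in control 1 and lowest in control 2. The mean of the xenobiotic metabolism list ran in that order too, deviating by 0.19, -0.21, -0.04 and 0.06 in controls 1 to 4. The mean of the colonocyte list deviated by 0.14, -0.16, -0.15 and 0.18, lowest in control 2 but highest in control 4. Of 21 measured colonocyte genes, 11 were lowest in control 3 (against 17.7% of all genes at or above the array median) and 7 in control 2 (against 27.8%). Control 4 was highest for 9 of them (against 15.6%) and control 1 for 8 (against 28.8%). Of 20 measured genes of xenobiotic metabolism, 10 were highest in control 1 (against 28.8%) and 6 lowest in control 2 (against 27.8%). Fabp2, the intestinal fatty acid binding protein, was 13.17, 11.63, 12.26 and 12.78, and Tmigd1, an adhesion molecule of the brush border, was 11.70, 9.95, 10.28 and 11.22. Ugt2b5, an enzyme that couples sugars to steroids and drugs, was 8.36, 5.49, 6.89 and 7.79. Isx, an intestinal homeobox factor chosen after its values were seen, was 8.81, 6.50, 7.51 and 8.60. With controls 1 and 4 close together or exchanged, the sulfate transporter Slc13a1 (8.16, 5.41, 6.73 and 8.19), the amino acid transporter subunit Slc3a1 (8.35, 6.01, 6.78 and 8.46), the cytochrome Cyp2c65 (10.68, 8.65, 9.43 and 10.80) and the alkaline phosphatase Alpi (7.47, 6.00, 6.53 and 8.04) set control 2 lowest and control 3 next. Without control 2 the SD of Slc13a1 was 0.84 in place of 1.33 and that of Ugt2b5 0.74 in place of 1.25. The order of Hoxd13 or its exact reverse was shared by 62 of the 194 genes (32.0%), and by 10.3% of all genes at or above the array median, an order that was singled out after the values were seen.

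Of 19 genes of salt and water transport, 9 were lowest in control 1, against 31.2% of all genes at or above the array median. Fxyd4, a regulator of the sodium pump, was 10.24, 11.46, 11.45 and 10.55 in controls 1 to 4, and Scnn1g, a subunit of the epithelial sodium channel that aldosterone induces, was 5.69, 6.84, 6.70 and 6.87. Best2, a channel of goblet cells, was 8.15, 8.96, 9.26 and 8.88. All 3 were lowest in control 1, and they were the 3 of the 19 with a range of at least 1, against 1.82% of all genes. In contrast, Slc26a3, the main chloride and bicarbonate exchanger of colonocytes, was 13.65 ± 0.07, Car1, a carbonic anhydrase, 13.82 ± 0.04, and Atp1b1, a subunit of the sodium pump, 13.69 ± 0.05.

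Of 20 goblet cell genes 14 were lowest in control 2, against 27.8% of all genes at or above the array median. The median SD of the goblet cell genes was 0.158 against 0.121 for all genes at or above the array median. Among them 2, Retnlb and Ang4, had a range of at least 1, against 1.82% of all genes. Muc2, the main mucin of the colon, was 14.09, 13.49, 14.01 and 13.95, and Spdef, a factor of goblet cell maturation, was 8.74, 8.08, 8.69 and 8.64, both lowest in control 2. The mean of the 20 genes deviated by 0.11, -0.29, 0.03 and 0.15 in controls 1 to 4. Ang4, an antimicrobial ribonuclease, was 12.10, 10.89, 10.91 and 11.26. B3gnt6, an enzyme that builds mucin sugar chains, was 8.87, 6.15, 8.72 and 8.31, and Plet1, a surface protein of epithelial progenitors, was 10.08, 7.79, 9.81 and 11.50. In both, control 2 lay at least 2 log2 units below the other colons, and without it the SD of B3gnt6 was 0.29 in place of 1.26 and that of Plet1 0.91 in place of 1.53. For Plet1 a second probe set ran in the same order (7.29, 5.33, 7.19 and 9.07) and another stayed at 7.05 ± 0.12. Mal, a membrane proteolipid of apical transport, was 9.72, 7.24, 7.81 and 10.52, and Sptssb, a subunit of the enzyme that starts sphingolipid synthesis, was 11.10, 8.75, 9.58 and 11.24. Both had control 2 lowest and control 4 highest. Mmp7, a protease that activates defensins, was 6.03, 7.97, 5.12 and 5.02, highest in control 2, where the prostate genes were high too, and its SD without that colon was 0.56 in place of 1.37.

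**Figure D4:**
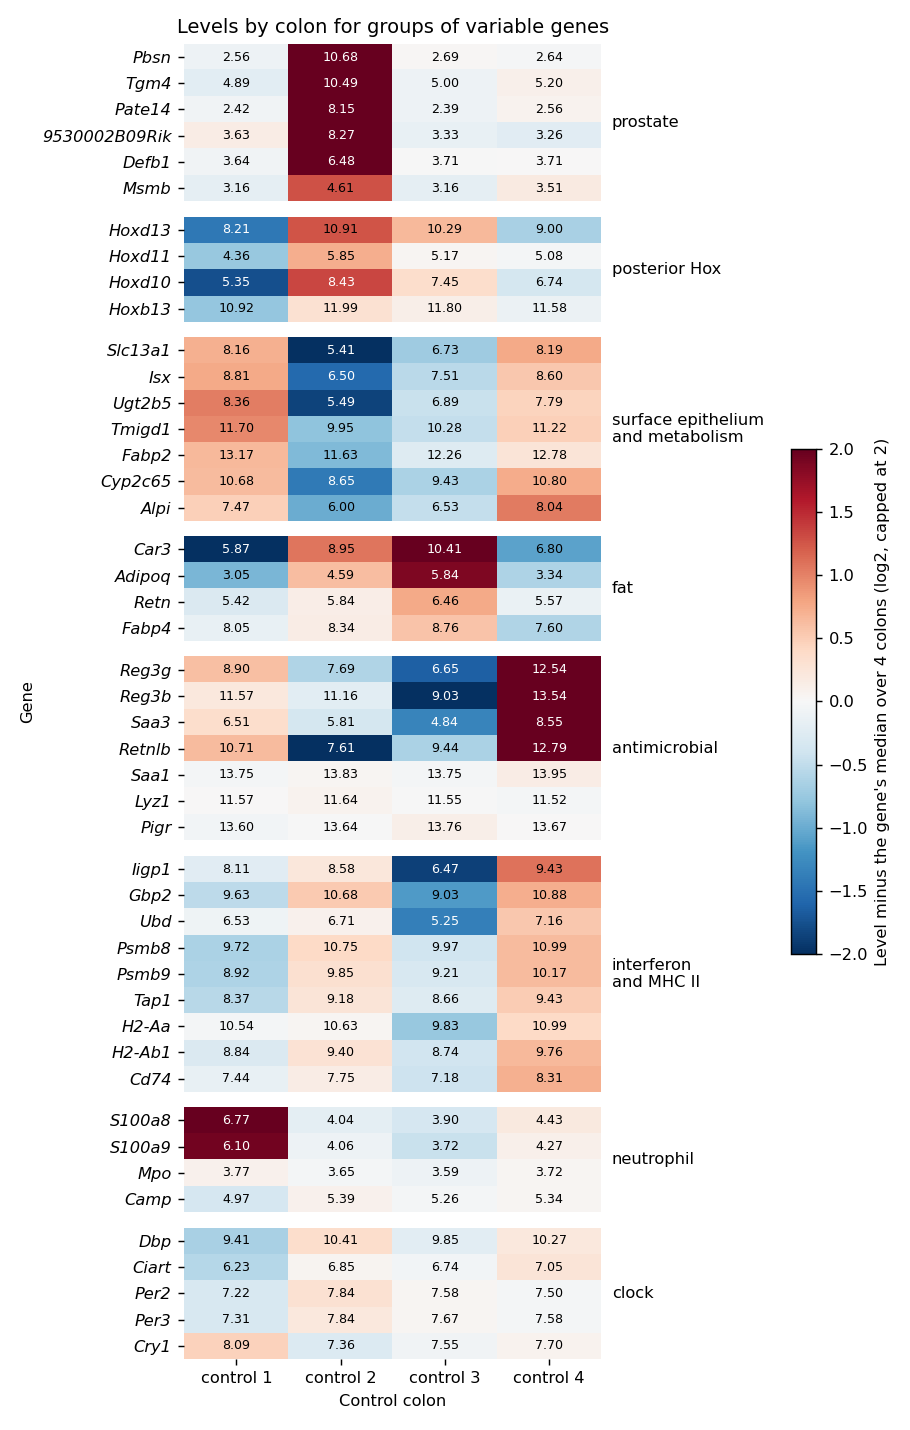
Log2 signal (numbers) of groups of variable genes in the 4 control colons (columns), coloured by the difference from the gene's median over the colons, red above and blue below, capped at 2 log2 units. Prostate genes are high in control 2 alone, the 4 posterior Hox genes shown fall from control 2 to 3, 4 and 1, and Reg3g, Reg3b and Saa3 are highest in control 4 beside the steady Saa1, Lyz1 and Pigr.

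Of 10 measured fat cell genes, 5 were highest in control 3, 4 in control 4 and 1 in control 2. Over all genes at or above the array median these shares were 34.1%, 15.6% and 21.5%. Car3, a carbonic anhydrase abundant in adipocytes, was 5.87, 8.95, 10.41 and 6.80 in controls 1 to 4, a range of 23.3-fold, and 2 dimmer probe sets also placed control 3 first and control 2 next. Adipoq, the hormone adiponectin, was 3.05, 4.59, 5.84 and 3.34, with an SD of 0.82 without control 3 in place of 1.28, and Fabp4, a fatty acid binding protein of adipocytes and endothelium, was 8.05, 8.34, 8.76 and 7.60. Retn, another adipocyte hormone, was 5.42, 5.84, 6.46 and 5.57. Over the list the mean deviated by -0.43, 0.10, 0.54 and -0.21, although 2 of the 10 alone were at or above the array median and Lep (3.21) and Adig (4.47) were at the floor in all colons. Fibroblast genes had their highest mean in control 3 as well (0.19). Pi16, a marker of adventitial fibroblasts, was 7.02 in control 3 and 6.21 to 6.46 elsewhere, and Mfap5, a microfibril protein, was 7.10 and 6.45 to 6.57.

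Of 14 smooth muscle genes 11 were highest in control 1, and of 14 measured genes of enteric neurons, glia and pacemaker cells 9 were. The share over all genes at or above the array median was 28.8%. Smooth muscle genes deviated by 0.17, -0.09, 0.07 and -0.14 in controls 1 to 4, with Actg2, the enteric actin, at 12.73, 12.08, 12.40 and 12.34. Smpx, the smooth muscle gene of highest SD, ran otherwise (8.52, 9.25, 8.94 and 8.54). Genes of enteric neurons, glia and pacemaker cells deviated by 0.21, -0.12, -0.04 and -0.05, with Snap25, a protein of synaptic release, at 7.91, 7.04, 7.38 and 7.23, while Ano1, a chloride channel of pacemaker cells and the brightest of the list, was lowest in control 1 (11.34, 11.75, 11.65 and 11.37). None of the 14 smooth muscle genes and none of the 10 neural and pacemaker genes at or above the array median had a range of at least 1, against 1.82% of all genes. Uchl1, a neuronal ubiquitin hydrolase below that median and chosen after its values were seen, was 6.56, 5.43, 5.86 and 5.48. The mean of the dividing cell genes differed little, with deviations between -0.08 and 0.06. Mki67, the proliferation antigen, was 10.75, 10.11, 10.18 and 10.46. Single genes of this list varied more, with a median SD of 0.191 at or above the array median, against 0.121 for all such genes. Of these 19 members, 0 had a range of at least 1, against 1.82% of all genes.

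**Figure D5:**
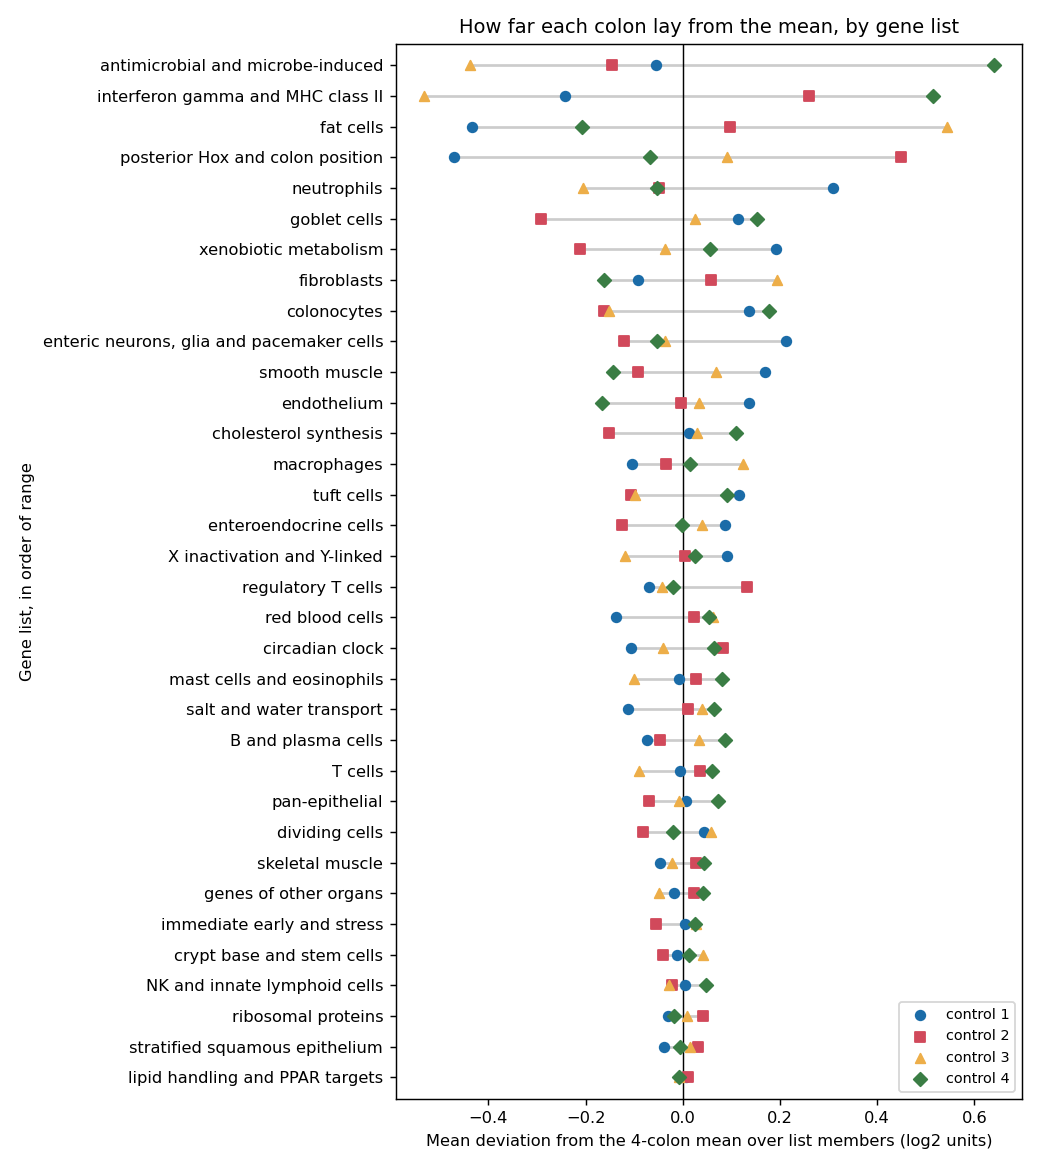
Mean deviation of each control colon (symbols) from the 4-colon mean, in log2 units, over the measured members of 34 gene lists, in order of their range. The antimicrobial list (-0.44 in control 3 to 0.64 in control 4), the interferon and MHC class II list, fat cells and posterior Hox genes spread the most, and lipid handling, squamous epithelium and ribosomal proteins the least.

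Of 16 measured clock genes, which oscillate over the day, 8 were lowest and 3 highest in control 1, against 31.2% and 28.8% of all genes at or above the array median. Dbp, an output factor of the clock, was 9.41, 10.41, 9.85 and 10.27 in controls 1 to 4. Per2 (7.22, 7.84, 7.58 and 7.50) and Per3 (7.31, 7.84, 7.67 and 7.58), its repressors, were lowest in control 1, while Cry1, a repressor that peaks later, was 8.09, 7.36, 7.55 and 7.70 and so highest there. Dbp was the 1 of 14 members at or above the array median with a range of at least 1, against 1.82% of all genes. No time of collection is given. Of the immediate early and stress genes, which rise when tissue is handled, 1 of 19 had such a range, Ccn1 (7.12, 6.61, 7.63 and 7.24), and the list deviated by -0.06 to 0.03.

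Some variable genes are neighbours on a chromosome. Erdr1 and Mid1 lie next to each other at the end of the X chromosome. Erdr1 was 7.27, 10.28, 10.00 and 9.76 and Mid1 was 4.69, 6.67, 7.33 and 6.25, both lowest in control 1. Without control 1 the SD of Erdr1 was 0.26 in place of 1.39 and that of Mid1 0.55 in place of 1.12. A second, dim probe set of Erdr1 was 3.71 ± 0.08 and one of Mid1 was 3.62 ± 0.17. The name of the bright Erdr1 probe set marks a design that may bind other transcripts too. The imprinted noncoding RNAs Meg3 (9.84, 8.40, 9.80 and 8.78) and Rian (7.17, 6.28, 7.93 and 6.56) of chromosome 12, chosen after their values were seen, were both high in controls 1 and 3 and low in controls 2 and 4.

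Over all genes at or above the array median, a principal component analysis put 46.5% of the variance on an axis with control 1 (15.9) and control 2 (-15.2) at its ends, with controls 3 (-4.46) and 4 (3.79) between them. The next axis, with 28.8%, set control 3 apart (15.1), and the last, with 24.7%, set control 4 apart (13.6). With 4 colons there are no further axes.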

How the data were processed

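RNA of 10 distal colons, 1 array each, was measured on an Affymetrix whole-genome mouse array, and the 4 control arrays were used here. The authors deposited log2 expression values per probe set. Per the submitters' processing notes they come from RMA in Affymetrix Expression Console, versions not given, which corrects background, gives arrays a common distribution by quantile normalization and sums up probes by median polish. With a common distribution, a shift of most genes in a colon would not show. The labels name Trizol for the extraction of RNA, the methods a Qiagen kit. Neither detection calls nor scan dates were used here, so batches of scanning and signal over background were not examined, and precision is limited by the 4 arrays.

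Of the probe sets, 34945 have 1 gene in the platform annotation, 932 have several and were left out, 9160 have none and 64 are controls. Gene identifiers of 34741 were found in RefSeq (GRCm38.p6), with 0 symbols changed. Of 18193 genes, 9010 have several probe sets, and the brightest by control mean was used. Level is the mean and spread the SD or range (highest minus lowest) over 4 colons. Spread was described for genes with a mean at or above 5.88, the median of 1-gene probe sets. No test was run, since 1 group was described. Inflamed arrays entered only as SDs within severe and moderate and as ranges of single genes.

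Named genes were Rag1, the 20 of highest level, the 20 of highest SD, the 10 of lowest SD in the upper quartile of level, per list the 2 of highest level and the 2 of highest SD, and all measured genes of the T cell, Treg, B cell and sex-linked lists. Members and lists were chosen with earlier results of these data known. Genes outside this rule were chosen after their values were seen, as were the prostate and seminal vesicle lists. Alternatives were tried for the value of a gene, the choice of probe sets, array scaling, the filter on dim genes, the measure of spread and each control left out in turn. The ranking and counts were tested on simulated data. Python 3.11.15 (numpy 2.4.6, pandas 2.3.3, scipy 1.17.1, matplotlib 3.10.9) and, for the trend of SD on level, limma 3.58.1 in R 4.3.3 were used.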

Additional observations from a re-analysis of the deposited data

Results flagged for a closer look

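Among 180 genes described or named by rule, 11 (6.11%) had 1 colon far from the other 3, with a gap to its neighbour that was a larger share of the range than the 95% critical value of Dixon's test allows, and so did 1 of 36 gene lists, that of prostate genes, chosen after their values were seen (gap over range of 0.958 for its mean, high in control 2). This test flags about 1 in 20 groups by chance, and the share found is near that. Pbsn (gap over range of 0.983), Pate14 (0.970) and Tgm4 (0.944) were high in control 2. Scnn1g (0.861), Cd14 (0.850) and Ltf, a neutrophil granule protein (0.834), were low in control 1, and Il10 (0.910) was high there at the array floor. Cox6a1 (0.896) was high in control 1 and Muc3 (0.856) in control 2, both within a range of less than 0.05 log2 units. Ccr8, a chemokine receptor (0.842), and Blk, a B cell kinase (0.895), were low in control 3 and dim in all colons.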

How the results depend on the processing

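No paired analysis was possible because the values come from no test. Of the 20 genes of highest SD, 10 were kept when genes had to reach the upper quartile of level, 13 with no filter on level, 13 when the highest colon alone had to reach the median (a setting chosen after seeing the data), and 13 (without control 2) to 18 when a control was left out. Of the 194 genes with a range of at least 1, the count was 82 of 6052 in the upper quartile of level, and it ran from 98 (without control 2) to 173 (without control 4) with a control left out. Of the 20 brightest genes, 12 were kept with the mean over a gene's probe sets and 10 with probe sets designed for 1 transcript alone. Other settings for these counts moved them by at most 1.5 times. For SDs of single genes, 99 of 106 values under settings with all colons and 91 of 108 with a colon left out stayed within 1.5 times of the main SD. Those outside it include Erdr1 (0.08) and Plet1 (0.116) with probe sets designed for 1 transcript alone, and Tgm4 (0.158) and Pbsn (0.068) without control 2. The causes were not tested. Levels near the floor of the array limit what a range or a ratio can show there.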

Other observations

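Among probe sets with no gene or several genes in the annotation, and a mean at or above the array median, 2 had the highest SDs. The more variable had log2 signals of 7.56, 10.47, 4.18 and 9.67 in controls 1 to 4 (SD 2.81), and the other had 7.56, 10.08, 6.99 and 9.24 (SD 1.44). Both were highest in control 2, then in control 4, and lowest in control 3, the order of colons of several interferon genes with controls 2 and 4 exchanged. They were chosen after their values were seen, and no gene was assigned to them here.

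The following 4 genes, all chosen after their values were seen, were highest in control 3. Retnla, a resistin-like protein of macrophages and of fat, was 8.47, 8.23, 9.54 and 8.44 in controls 1 to 4. Cilp, a matrix protein, was 7.75, 7.46, 8.52 and 7.76, and Pcolce2, an enhancer of collagen processing, was 6.29, 6.26, 7.25 and 6.24. Cyp2e1, an enzyme of liver and fat, was 3.96, 5.08, 6.85 and 4.12. Adipoq, as given above, was highest in the same colon, at 5.84.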
